A study of Homo sapiens with 8 samples.

Results

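Serine, one-carbon, proline and asparagine synthesis was examined in human iPSC-derived cardiomyocytes (hiPS-CMs) through 10 genes chosen by symbol: PHGDH, PSAT1, PSPH, SHMT1, SHMT2, MTHFD1, MTHFD2, ALDH1L2, PYCR1 and ASNS. The gene table of the study lists 60658 genes, and all 10 were among the 14334 that reached 1 FPKM, a read count scaled by gene length and library size, in 4 or more libraries and were tested. The 4 libraries of the H/R+BA group and the 4 of the H/R group came from 1 iPSC line, named 253G1 in the paper and 235G1 in the sample labels. Cells of both groups were kept for 12 h at 1% O2 in serum-free DMEM with 0.3 g/L glucose and were reoxygenated for a further 12 h. During these last 12 h the H/R+BA cells had medium conditioned by brown adipocyte (BA) sheets, which were made from rat brown preadipocytes on a fiber scaffold, and the H/R cells had plain DMEM with 10% serum. The sheets themselves had been kept in medium with insulin and T3. No library of cells in the sheets' medium without sheets was analysed here, so factors released by the sheets and other differences between the media cannot be told apart. Nothing in the labels says that replicates came from separate cultures, so the p-values measure only how these 8 libraries vary.

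Cells make serine from a glycolytic intermediate in the steps of PHGDH, PSAT1 and PSPH, and the SHMT enzymes then split serine into glycine and a one-carbon unit carried by folate. The carbon units are moved between oxidation states by the MTHFD enzymes and ALDH1L2 and feed purine, thymidylate and methionine synthesis, partly in mitochondria and partly in the cytosol. PYCR1 makes proline in mitochondria and ASNS makes asparagine from aspartate and glutamine. Many of these genes are known targets of the transcription factor ATF4, which is translated more when amino acids are short or mitochondria are stressed.

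Of the 10 genes, 7 rose in the H/R+BA group (limma on log2(FPKM + 1), adjusted p under 0.05) and 0 were called lower. The log2 fold changes of FPKM + 1 were positive for all 10, although that of ASNS was near 0 and its ratio of mean FPKM was 0.992. Across all genes tested, 13.7% were called higher and 11.1% lower, so the share of these 10 genes called higher lay above that of the whole table. The 10 genes were chosen with earlier results of these data known, so comparisons with the whole table are no test of them. The genes that rose were PHGDH, PSPH, SHMT2, MTHFD1, MTHFD2, ALDH1L2 and PYCR1, whereas PSAT1, SHMT1 and ASNS did not pass the test. The median log2 fold change of the 10 genes was 0.54, beside 0.01 for all genes tested. Every H/R+BA library lay above every H/R library for 7 of the 10 genes, a pattern found in 15.3% of all genes tested. These 7 included PSAT1, which was not called, and left out SHMT2, which was called. Fewer cells of a type and less RNA per cell cannot be told apart in such bulk libraries.

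**Figure D1:**
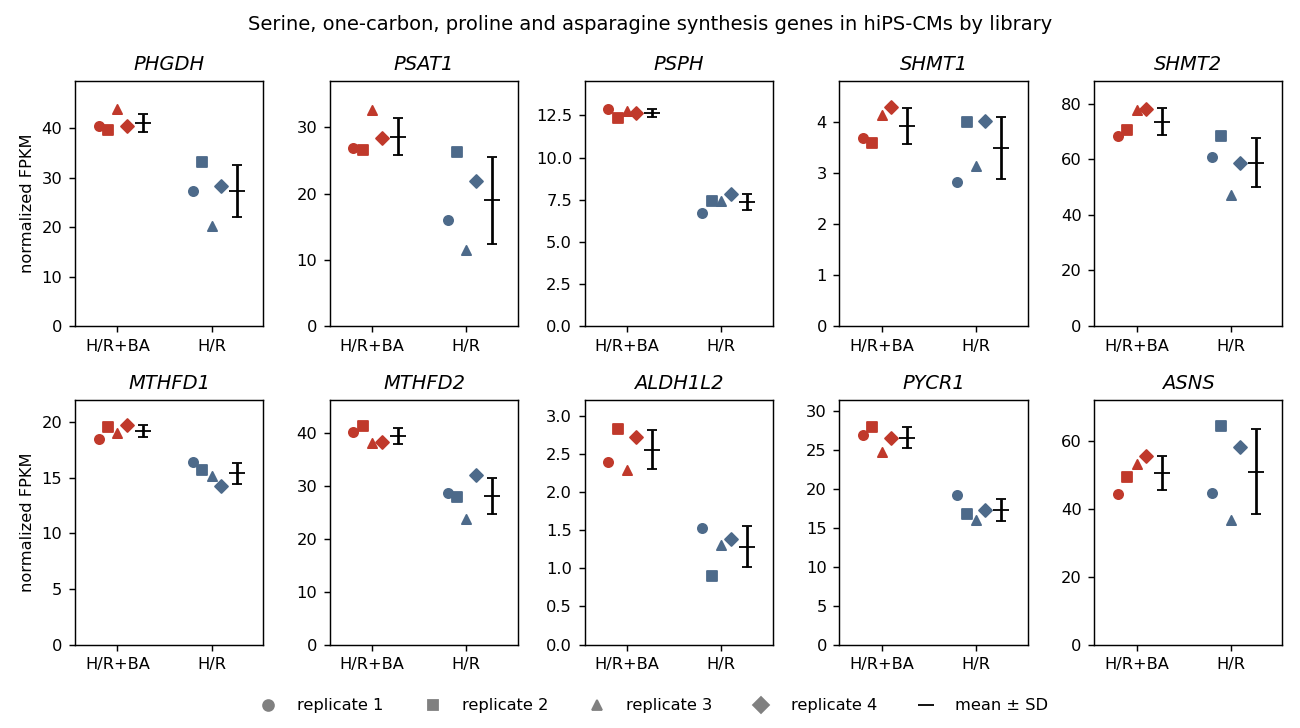
Normalized FPKM of each of the 10 genes (vertical axes, each from 0) in the 4 H/R+BA libraries (red) and the 4 H/R libraries (blue), with the replicate number as the marker shape and the mean ± SD in black. PSPH, MTHFD1, MTHFD2, ALDH1L2, PYCR1 and PHGDH show clear gaps between the groups, PSAT1 is apart only by 26.6 against 26.3 FPKM, and SHMT1, SHMT2 and ASNS overlap.

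The libraries held 48100296 to 53308952 reads in the H/R+BA group and 39854257 to 48898147 in the H/R group, and 95.38% to 96.34% of them mapped. Cardiomyocyte markers were abundant in every library, with a summed FPKM of 16020 to 19930 for 10 markers in the H/R+BA group (median 18170), against 13660 to 21440 in the H/R group (median 18780). Of these 10 markers 1 was called higher, TNNI3 (log2 fold change 0.46, limma adjusted p = 0.0229), and 0 were called lower. Among all genes tested, 13.7% were called higher and 11.1% lower, and the marker counts in this paragraph stand beside these shares. Markers of hepatic and endoderm cells were present as well, at 555 to 954 summed FPKM in the H/R+BA group (median 742), against 431 to 1219 in the H/R group (median 709), most of it AFP. Among these 6 markers 1 was called higher, SOX17 (log2 fold change 0.79, limma adjusted p = 0.00424), and 0 were called lower. SOX17 did not follow AFP, the main part of this sum. In each group it was lowest where AFP was highest, at 4.85 against 968 FPKM in H/R replicate 2 and 10.8 against 706 FPKM in H/R+BA replicate 3. Its call therefore does not stand for the list. The pluripotency markers POU5F1, LIN28A and DPPA4 were all called higher, and their list summed to 10.96 to 13.3 FPKM in the H/R+BA group (median 12.3), against 3.97 to 4.85 in the H/R group (median 4.77), whereas NANOG stayed at or below 0.0499 FPKM throughout. Of 6 tested endothelial markers 4 rose, with list sums of 29.2 to 36.8 FPKM in the H/R+BA group (median 36.4), against 13.5 to 24.5 in the H/R group (median 22.7). Both tested macrophage markers rose, CD68 and CSF1R, at list sums of 11.7 to 16.04 FPKM in the H/R+BA group (median 12.5), against 4.32 to 9.23 in the H/R group (median 6.42). PTPRC, the general marker of white blood cells, was listed at 0 in all H/R+BA libraries and in 3 of 4 H/R libraries. Fibroblast markers summed to 683 to 892 FPKM in the H/R+BA libraries and 481 to 763 FPKM in the H/R libraries, with 2 of 7 tested called higher. Proliferation markers summed to 37.7 to 49.9 FPKM in the H/R+BA libraries and 29.0 to 46.2 FPKM in the H/R libraries, with 2 of 10 called higher. Smooth muscle markers summed to 1706 to 1940 FPKM in the H/R+BA libraries and 1817 to 2643 FPKM in the H/R libraries, with 1 of 4 called lower. None of 6 adipocyte markers passed the filter, and their sum stayed below 1 FPKM in every library, at 0.515 to 0.937 in the H/R+BA group and 0.292 to 0.528 in the H/R group. LIN28A and the endothelial marker TEK were below 1 FPKM in all H/R libraries and the smooth muscle marker MYH11 in all H/R+BA libraries, so these entered the counts only through the group in which they were higher. The hepatic and endoderm markers and the cardiomyocyte markers are compared below with the genes whose groups overlapped, and the part of the other cell types in the results on the 10 genes was not tested.

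Upstream sequences were taken from RefSeq (GRCh38.p14), which matched 6 of the 10 genes with 7 entries, and they are shown for ASNS, MTHFD1 and PSAT1 because ATF4 with its partners of the C/EBP family binds TGATGNAA and the MYC family and its relatives bind the E-box CACGTG. Both were searched on both strands in the 250 bases before each annotated start. The ASNS and MTHFD1 stretches lie upstream of the RefSeq starts used but wholly within exons that GENCODE 44 annotates for these genes (30 of 30 bases each). The capitals mark a match, and positions are counted back from the start. The ASNS window at chr7:97872458-97872487 on the minus strand runs over positions -79 to -50, the MTHFD1 window at chr14:64388323-64388352 on the plus strand over -30 to -1, and the PSAT1 window at chr9:78297025-78297124 on the plus strand over -100 to -1.
ASNS: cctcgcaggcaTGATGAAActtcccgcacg
MTHFD1: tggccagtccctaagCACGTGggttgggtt
PSAT1: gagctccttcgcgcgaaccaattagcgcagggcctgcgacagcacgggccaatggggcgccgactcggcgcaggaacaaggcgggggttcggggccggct
TGATGNAA occurred once among the 7 windows, in ASNS at -68 to -61, and in 3.14% of all 35116 upstream windows. CACGTG occurred once, in MTHFD1 at -15 to -10, and in 6.34% of all windows. The PSAT1 sequence is shown as a stretch with neither motif, and neither was found in the windows of PHGDH, MTHFD2, SHMT1 and the other ASNS start. Of the 100 bases just before the start, 100 lay in annotated exons for PHGDH, 51 for MTHFD2 and 13 for SHMT1. A match is a run of letters and not a measured binding site. ASNS, the gene with the ATF4-type match, was one of the 3 genes that did not pass the test. PSPH, SHMT2, ALDH1L2 and PYCR1, all called higher, had no entry and were not searched.

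Serine synthesis begins with PHGDH, which oxidizes 3-phosphoglycerate and commits it to the pathway. PHGDH (ENSG00000092621, chr1:119648411-119744218, plus strand, GENCODE 44 on GRCh38) had 40.4, 39.7, 43.9 and 40.4 FPKM in H/R+BA replicates 1 to 4, against 27.3, 33.3, 20.3 and 28.4 FPKM in H/R replicates 1 to 4. The groups did not overlap, and the H/R libraries spread much more widely than the H/R+BA libraries. Means were 41.1 ± 1.90 FPKM in the H/R+BA group and 27.3 ± 5.35 FPKM in the H/R group (SD, n = 4 each), a ratio of 1.504, and the log2 fold change of FPKM + 1 was 0.59 (SE 0.12, limma adjusted p = 0.00790).

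PSAT1, the aminotransferase that takes an amino group from glutamate in the next step, had almost the same ratio of means but a wider spread. PSAT1 (ENSG00000135069, chr9:78297125-78330093, plus strand) had 26.8, 26.6, 32.6 and 28.5 FPKM in the H/R+BA libraries, against 16.1, 26.3, 11.5 and 21.9 FPKM in the H/R libraries. The lowest H/R+BA library and the highest H/R library, both replicate 2, were only just apart. The means of 28.6 ± 2.78 FPKM in the H/R+BA group and 18.95 ± 6.50 FPKM in the H/R group (SD, n = 4 each) gave a ratio of 1.51 and a log2 fold change of 0.63 (SE 0.21, 95% interval 0.16 to 1.09, limma adjusted p = 0.0519), which did not pass the threshold. Without H/R replicate 2 PSAT1 was called (log2 fold change 0.80, adjusted p = 0.0117), and it was also called on the deposited normalized counts (adjusted p = 0.0409).

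PSPH removes the phosphate in the last step and releases serine, and of the 3 serine synthesis genes it had the tightest values. PSPH (ENSG00000146733, chr7:56011051-56051604, minus strand) had 12.9, 12.3, 12.7 and 12.6 FPKM in the H/R+BA libraries, against 6.71, 7.42, 7.40 and 7.85 FPKM in the H/R libraries. Every H/R+BA library was well above every H/R library, and both groups were narrow, with coefficients of variation of 1.95% and 6.36%. The means of 12.6 ± 0.247 FPKM in the H/R+BA group and 7.34 ± 0.467 FPKM in the H/R group (SD, n = 4 each) gave a ratio of 1.72 and a log2 fold change of 0.71 (SE 0.06, limma adjusted p = 2.50e-04), the highest log2 fold change of the 10 genes on FPKM + 1.

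The 2 serine hydroxymethyltransferases turn serine into glycine, SHMT1 in the cytosol and SHMT2 in mitochondria. SHMT2 (ENSG00000182199, chr12:57229573-57234935, plus strand) had the highest level of the 10 genes in every library, with 68.3, 70.4, 77.6 and 78.1 FPKM in the H/R+BA libraries, against 60.8, 68.3, 47.0 and 58.8 FPKM in the H/R libraries. The groups touched at 68.3 FPKM, in the lowest H/R+BA library and the highest H/R library. Means were 73.6 ± 4.97 FPKM in the H/R+BA group and 58.7 ± 8.84 FPKM in the H/R group (SD, n = 4 each), a ratio of 1.25 and a log2 fold change of 0.33 (SE 0.10, limma adjusted p = 0.0419). This call was lost when any single library other than H/R replicate 2 was left out (adjusted p = 0.0508 to 0.102), without the filter on low values (0.114) and with libraries rescaled to equal totals (0.0795).

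SHMT1 was far lower than SHMT2 in all 8 libraries and did not pass the test. SHMT1 (ENSG00000176974, chr17:18327860-18363563, minus strand) had 3.68, 3.59, 4.14 and 4.30 FPKM in the H/R+BA libraries, against 2.82, 4.01, 3.14 and 4.02 FPKM in the H/R libraries. The groups overlapped, with means of 3.92 ± 0.345 FPKM in the H/R+BA group and 3.50 ± 0.612 FPKM in the H/R group (SD, n = 4 each) and a log2 fold change of 0.14 (95% interval -0.11 to 0.38, limma adjusted p = 0.387).

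The folate enzymes that interconvert one-carbon units all rose. MTHFD1, the trifunctional folate enzyme of the cytosol, is ENSG00000100714 at chr14:64388031-64463457 on the plus strand. MTHFD1 had 18.5, 19.6, 19.02 and 19.7 FPKM in the H/R+BA libraries, against 16.4, 15.7, 15.2 and 14.2 FPKM in the H/R libraries. The groups did not overlap although the difference was modest, with means of 19.2 ± 0.556 FPKM in the H/R+BA group and 15.4 ± 0.907 FPKM in the H/R group (SD, n = 4 each), a ratio of 1.25 and a log2 fold change of 0.30 (SE 0.06, limma adjusted p = 0.00564).

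MTHFD2 carries out the dehydrogenase and cyclohydrolase steps in mitochondria and is known for high levels in embryonic and dividing cells. MTHFD2 (ENSG00000065911, chr2:74186172-74217565, plus strand) had 40.1, 41.3, 38.1 and 38.3 FPKM in the H/R+BA libraries, against 28.8, 27.9, 23.7 and 32.1 FPKM in the H/R libraries. All H/R+BA libraries were higher than all H/R libraries, of which replicate 4 came closest. Means were 39.5 ± 1.51 FPKM in the H/R+BA group and 28.1 ± 3.46 FPKM in the H/R group (SD, n = 4 each), a ratio of 1.40 and a log2 fold change of 0.48 (SE 0.08, limma adjusted p = 0.00348).

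ALDH1L2, the mitochondrial enzyme that oxidizes formyl-folate to CO2 and yields NADPH, had the lowest FPKM of the 10 genes in every library and the highest ratio of means. ALDH1L2 (ENSG00000136010, chr12:105019784-105107643, minus strand) had 2.39, 2.83, 2.29 and 2.73 FPKM in the H/R+BA libraries, against 1.53, 0.903, 1.31 and 1.39 FPKM in the H/R libraries. The groups were well apart, and H/R replicate 2 was the lowest. The means of 2.56 ± 0.258 FPKM in the H/R+BA group and 1.28 ± 0.269 FPKM in the H/R group (SD, n = 4 each) gave a ratio of 2.00. The log2 fold change was 0.65 on FPKM + 1 (SE 0.11, limma adjusted p = 0.00318), a scale that understates the change of low genes, and 1.12 on the deposited normalized counts, which ran from 610 to 684 in the H/R+BA group and from 225 to 367 in the H/R group. Exons of ALDH1L2 share 145 bases with C12orf45 and 131 bases with KIAA1033 on the opposite strand. Neither neighbour was called, with log2 fold changes of 0.17 for C12orf45 (adjusted p = 0.151) and -0.12 for KIAA1033 (adjusted p = 0.287).

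PYCR1, which makes proline in mitochondria and consumes NAD(P)H, rose with little spread. PYCR1 (ENSG00000183010, chr17:81932384-81942412, minus strand) had 26.98, 28.05, 24.8 and 26.5 FPKM in the H/R+BA libraries, against 19.2, 16.8, 15.97 and 17.3 FPKM in the H/R libraries. No library of either group came near the other group. Means were 26.6 ± 1.35 FPKM in the H/R+BA group and 17.3 ± 1.38 FPKM in the H/R group (SD, n = 4 each), a ratio of 1.53 and a log2 fold change of 0.59 (SE 0.07, limma adjusted p = 5.79e-04). An antisense RNA that shares 450 exonic bases with PYCR1, RP11-498C9.13, was listed at 0.447 to 3.64 FPKM over the 8 libraries (log2 fold change 0.78, adjusted p = 0.0674). Exons of MTHFD2 share 1324 bases with SLC4A5 (0.536 to 1.93 FPKM) and those of MTHFD1 share 1556 bases with CTD-2555O16.4 (0.414 to 0.615 FPKM), both on the opposite strand. The strand setting of the counting is not stated, so reads of such pairs may be mixed.

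ASNS, asparagine synthetase, had almost equal means in both groups. ASNS (ENSG00000070669, chr7:97851677-97872542, minus strand) had 44.2, 49.2, 53.1 and 55.6 FPKM in the H/R+BA libraries, against 44.7, 64.2, 36.6 and 58.3 FPKM in the H/R libraries. The H/R libraries enclosed the whole range of the H/R+BA libraries. Means were 50.5 ± 4.95 FPKM in the H/R+BA group and 50.9 ± 12.6 FPKM in the H/R group (SD, n = 4 each), with a log2 fold change of 0.02 (SE 0.16, limma adjusted p = 0.951). The 95% interval of -0.34 to 0.37 still includes changes of the size measured for SHMT2 and MTHFD1, so the data do not show that ASNS was unaffected, and the sign of its fold change turned with the library left out (-0.13 without H/R replicate 3, 0.14 without H/R replicate 2).

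**Figure D2:**
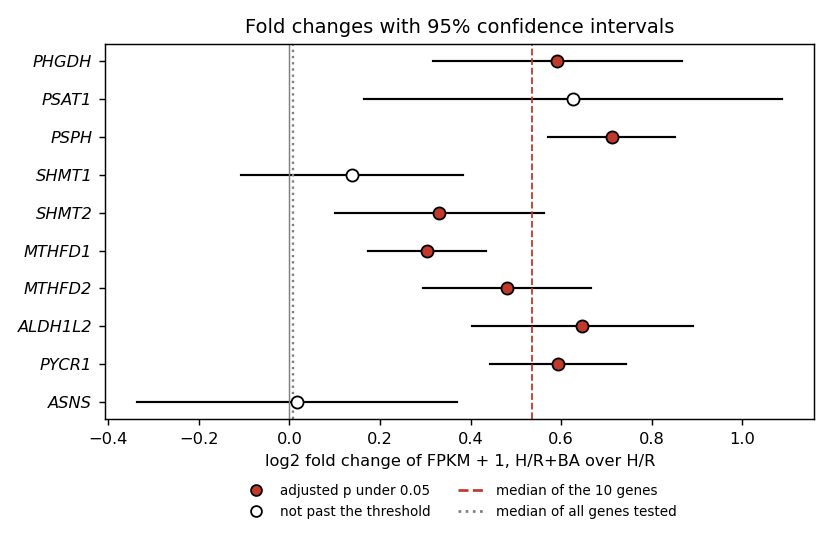
Log2 fold change of FPKM + 1, H/R+BA over H/R, with its 95% interval from limma for each of the 10 genes, filled where the adjusted p was under 0.05. The dashed line marks the median of the 10 genes (0.54) and the dotted line that of all genes tested (0.01). The interval of ASNS, from -0.34 to 0.37, is centred near 0, and that of PSPH, from 0.57 to 0.85, is the furthest to the right at its lower end.

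FPKM is scaled by gene length, so levels can be set side by side, but which lengths the authors used is not stated. The order depends on them. In the H/R+BA group ALDH1L2 had 610 to 684 normalized counts and SHMT1 294 to 303, although the FPKM of ALDH1L2 was lower. In the H/R+BA group the order of mean FPKM was SHMT2, ASNS, PHGDH, MTHFD2, PSAT1, PYCR1, MTHFD1, PSPH, SHMT1 and ALDH1L2. The ranges of PHGDH and MTHFD2 overlapped there, as did those of PSAT1 and PYCR1, and all other neighbours were apart. In the H/R group the order was SHMT2, ASNS, MTHFD2, PHGDH, PSAT1, PYCR1, MTHFD1, PSPH, SHMT1 and ALDH1L2, and the ranges of neighbours overlapped at every step among the first 7 except between ASNS and MTHFD2. By FPKM, both groups thus had mitochondrial SHMT2 and ASNS at the top and cytosolic SHMT1 and ALDH1L2 at the bottom.

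The spread between replicates was itself uneven. The SD of log2(FPKM + 1) was larger in the H/R group for 10 of 10 genes, and for 69.2% of all genes tested. Coefficients of variation were 9.70% in H/R+BA and 34.3% in H/R libraries for PSAT1, 9.79% against 24.7% for ASNS, and 4.61% against 19.6% for PHGDH. H/R replicate 3, which had the fewest reads, held the lowest FPKM of all 8 libraries for PHGDH, PSAT1, SHMT2, MTHFD2 and ASNS, and H/R replicate 2 was the highest H/R library for PHGDH, PSAT1, SHMT2 and ASNS. Taken as deviations from the group means, PHGDH went with PSAT1 (r = 0.959), SHMT2 (r = 0.933) and ASNS (r = 0.879) over the 8 libraries, while PSPH was nearly unrelated to PHGDH (r = 0.0819) and MTHFD1 ran opposite to PSPH (r = -0.906). These correlations describe 8 libraries that share 1 cell line and are given without a test.

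The hepatic and endoderm markers varied between replicates of both groups. After the values were seen, they and the cardiomyocyte markers were compared with the 3 genes whose groups overlapped. The genes and the marker lists were thus picked from these same data, and the adjustment covers only the 6 relations computed. The p-values below therefore describe the relations and are no independent test of them. ASNS followed the summed FPKM of these markers over the 8 libraries (log2 scale, Pearson r = 0.962, exact permutation p = 5.21e-04, adjusted over 6 relations 0.00313, Spearman rho = 0.905, exact permutation p = 0.00456, adjusted 0.0137). Without replicates 2 and 3 of the H/R group, the libraries furthest from the median of the markers, r was 0.922. ASNS ran opposite to the sum of the cardiomyocyte markers (r = -0.921, exact permutation p = 0.00228, adjusted 0.00685, rho = -0.905, exact permutation p = 0.00456, adjusted 0.0137, and r = -0.917 without the 2 furthest libraries). SHMT1 showed the same directions more weakly, with r = 0.803 for the hepatic and endoderm markers (exact permutation p = 0.0139, adjusted 0.0208, rho = 0.738, exact permutation p = 0.0458, adjusted 0.0687) and r = -0.822 for the cardiomyocyte markers (exact permutation p = 0.00861, adjusted 0.0172, rho = -0.81, exact permutation p = 0.0218, adjusted 0.0436). Without the 2 furthest libraries these r values of SHMT1 were 0.833 and -0.947. The hepatic and endoderm sum and the cardiomyocyte sum ran largely opposite to each other, so the 2 relations of a gene are not independent. They were 1219 and 13660 FPKM in H/R replicate 2, and 431 and 21300 FPKM in H/R replicate 3. For SHMT2 the relations did not pass (r = 0.606, exact permutation p = 0.106, adjusted 0.127, and r = -0.489, exact permutation p = 0.224, adjusted 0.224). These values also hold the difference of SHMT2 between the groups. Within each group of 4, too few for a test, SHMT2 was lowest in the library with the lowest hepatic and endoderm sum, and in the library with the highest sum it was second highest in the H/R+BA group and highest in the H/R group. With the hepatic and endoderm sum as a covariate in limma, a fit added after the data were seen, 8 of the 10 genes were called higher. PSAT1 was now among them (log2 fold change 0.60, adjusted p = 5.03e-04), and ASNS stayed near 0 (-0.0068, adjusted p = 0.937). This fit also called more of all 14334 genes tested, 2867 higher and 2328 lower, against 1958 and 1588 without the covariate. The added call of PSAT1 is thus no result particular to these genes. Each library was made from a whole culture, and which cells the ASNS reads came from was not tested.

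**Figure D3:**
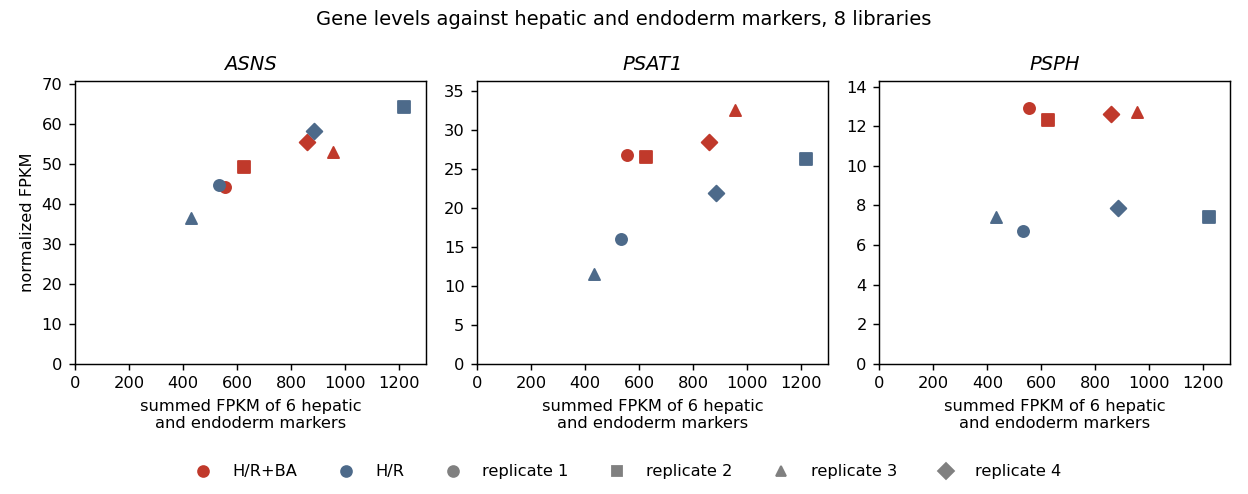
Normalized FPKM of ASNS, PSAT1 and PSPH (vertical axes) against the summed FPKM of 6 hepatic and endoderm markers (horizontal axes) in the 4 H/R+BA libraries (red) and the 4 H/R libraries (blue), with the replicate number as the marker shape. ASNS of both groups lies along 1 rising band (r = 0.962), PSAT1 rises with the markers at a higher level in the H/R+BA group, and PSPH forms 2 flat groups at 12.3 to 12.9 and 6.71 to 7.85 FPKM.

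Within each library, the FPKM of a mitochondrial folate enzyme was set against that of its cytosolic counterpart, and the difference between the groups passed the test for neither pair. SHMT2 over SHMT1 was 18.6, 19.6, 18.8 and 18.2 in the H/R+BA libraries, against 21.6, 17.02, 14.96 and 14.6 in the H/R libraries. H/R replicate 1 lay above all H/R+BA libraries and the other H/R libraries lay below them, and the difference in mean log2 ratio was 0.19 (two-sided exact permutation p = 0.171, adjusted over 3 ratios 0.2). The mean log2 ratio of FPKM + 1 was 3.92 ± 0.0337 in the H/R+BA group and 3.73 ± 0.222 in the H/R group (SD, n = 4 each). MTHFD2 over MTHFD1 was 2.17, 2.11, 2.00 and 1.94 in the H/R+BA libraries, against 1.75, 1.78, 1.56 and 2.26 in the H/R libraries. Here H/R replicate 4 was the highest of all, and the difference in mean log2 ratio was 0.18 (two-sided exact permutation p = 0.2, adjusted over 3 ratios 0.2). The smallest p that 4 against 4 libraries allow is 0.0286.

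**Figure D4:**
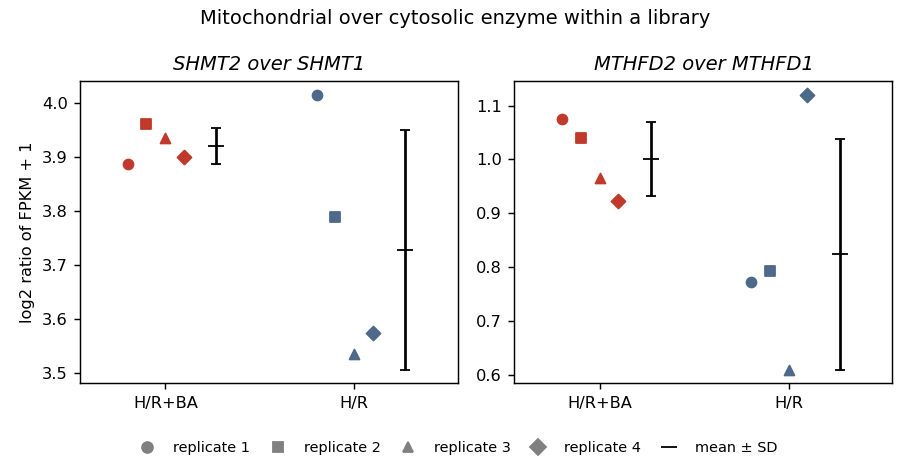
Log2 ratio of FPKM + 1 between the mitochondrial and the cytosolic enzyme within each library (vertical axes, not from 0) for SHMT2 over SHMT1 and MTHFD2 over MTHFD1, in the 4 H/R+BA libraries (red) and the 4 H/R libraries (blue), with the replicate number as the marker shape and mean ± SD in black. In both panels the H/R libraries spread more widely, and 1 of them lies above all H/R+BA libraries.

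Genes next to these 10 in metabolism are given by list. Outside the regulators, 8 lists held 78 genes, of which 71 were tested. Of these, 19 were called higher (26.8%) and 4 lower, and their median log2 fold change was 0.09. Among all genes tested, 13.7% were called higher and 11.1% lower, and the count of each list below stands beside these shares. The lists are small and were chosen with earlier results of these data known, so no list was tested against those shares. Purine synthesis takes carbons of its ring from formyl-folate, and 5 of 13 tested genes of this list rose (median 0.14), while 0 were called lower and 1 was lower at an unadjusted p under 0.05. PAICS, which catalyses steps in the middle of the pathway, averaged 48.4 ± 1.58 FPKM in the H/R+BA group and 33.0 ± 2.02 FPKM in the H/R group (log2 fold change 0.54, limma adjusted p = 3.94e-04). ADSSL1, the muscle form of adenylosuccinate synthase, averaged 24.1 ± 2.34 FPKM in the H/R+BA group and 13.5 ± 1.99 FPKM in the H/R group (log2 fold change 0.80, adjusted p = 0.00110). GMPS, which makes GMP, averaged 26.5 ± 1.21 FPKM in the H/R+BA group and 19.6 ± 0.668 FPKM in the H/R group (log2 fold change 0.42, adjusted p = 9.79e-04). IMPDH1 and IMPDH2, both enzymes of the guanine branch, were the others that rose, and GART and ATIC, which use formyl-folate directly, did not pass (adjusted p = 0.113 and 0.0615).

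Carriers of folate and serine included 3 genes called higher and 0 called lower of 11 tested (median 0.12), with 2 lower at an unadjusted p under 0.05. SLC19A1, the reduced folate carrier, averaged 7.41 ± 0.367 FPKM in the H/R+BA group and 4.92 ± 0.202 FPKM in the H/R group (log2 fold change 0.50, limma adjusted p = 0.00111). SLC1A5, a carrier of glutamine, serine and other neutral amino acids, averaged 37.9 ± 1.88 FPKM in the H/R+BA group and 27.6 ± 2.55 FPKM in the H/R group (0.44, adjusted p = 0.00251). SFXN1, the mitochondrial serine carrier, averaged 68.6 ± 2.79 FPKM in the H/R+BA group and 57.8 ± 4.35 FPKM in the H/R group (0.24, adjusted p = 0.0179), and adjusted p was 0.0535 when H/R+BA replicate 1 was left out and 0.0567 for replicate 2, so the call was lost.

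Other folate enzymes moved both ways, with 1 of 9 tested genes called higher, 1 called lower and a median of 0.04. MTHFD1L, which releases formate from mitochondria, averaged 29.2 ± 1.03 FPKM in the H/R+BA group and 24.4 ± 1.79 FPKM in the H/R group (log2 fold change 0.25, limma adjusted p = 0.0163). MTHFS, which returns 5-formyl-folate to the active pool, fell to 21.8 ± 0.701 FPKM in the H/R+BA group, against 27.9 ± 3.20 FPKM in the H/R group (-0.34, adjusted p = 0.0112). In the glycine cleavage system, which splits glycine in mitochondria, 0 of 4 tested genes were called by limma, and 1 was higher and 1 lower at an unadjusted p under 0.05. Its most abundant genes were DLD, with 47.1 ± 2.48 FPKM in the H/R+BA group and 55.0 ± 6.24 FPKM in the H/R group (adjusted p = 0.0774, but 0.0431 without H/R replicate 2 and 0.0383 with equal totals), and GCSH, with 15.1 ± 0.928 FPKM in the H/R+BA group and 14.97 ± 1.98 FPKM in the H/R group (adjusted p = 0.920).

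In the methionine cycle and transsulfuration 3 of 11 tested genes were called higher, 1 was called lower and the median was 0.09. CBS, which joins serine and homocysteine, averaged 1.46 ± 0.0710 FPKM in the H/R+BA group and 0.768 ± 0.235 FPKM in the H/R group (log2 fold change 0.49, limma adjusted p = 0.0124), but its reads are shared with the near-identical copy CBSL and its level is uncertain. All H/R libraries of CBS were below 1 FPKM, so it was tested only through the H/R+BA group, and its log2 fold change was 0.89 with a pseudocount of 0.1 and 1.03 on the normalized counts. AHCYL1, known mainly as a regulator of the IP3 receptor and not as a hydrolase, averaged 33.6 ± 1.01 FPKM in the H/R+BA group and 25.7 ± 1.46 FPKM in the H/R group (0.37, adjusted p = 0.00159). MAT2A, which makes S-adenosylmethionine, fell to 63.3 ± 3.13 FPKM in the H/R+BA group, against 74.7 ± 4.09 FPKM in the H/R group (-0.24, adjusted p = 0.0151), a call lost with libraries rescaled to equal totals (adjusted p = 0.0699). CTH, the next enzyme after CBS, was the remaining gene called (0.59, adjusted p = 0.0466), and its call was lost in 12 of 17 alternatives (adjusted p up to 0.131), among them a pseudocount of 0.1 (0.0533) and leaving out any library but H/R replicate 2 or 4.

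Among other enzymes that use serine, 2 of 8 tested genes rose (median 0.13), while 0 were called lower and 1 was lower at an unadjusted p under 0.05. SARS, the cytosolic seryl-tRNA synthetase, averaged 123 ± 3.86 FPKM in the H/R+BA group and 98.9 ± 9.18 FPKM in the H/R group (log2 fold change 0.32, limma adjusted p = 0.00950), and SPTLC3, a subunit of serine palmitoyltransferase, averaged 2.15 ± 0.561 FPKM in the H/R+BA group and 1.04 ± 0.188 FPKM in the H/R group (0.61, adjusted p = 0.0108). In the aspartate, asparagine and glutamine list 4 of 10 tested genes rose and 1 fell (median 0.25). ASS1, which joins aspartate to citrulline, averaged 23.8 ± 1.40 FPKM in the H/R+BA group and 14.7 ± 1.05 FPKM in the H/R group (0.65, adjusted p = 3.89e-04). NARS, the asparaginyl-tRNA synthetase, averaged 145 ± 8.77 FPKM in the H/R+BA group and 113 ± 7.41 FPKM in the H/R group (0.36, adjusted p = 0.00385). GPT2 and GOT2, both aminotransferases, were the other genes that rose, GOT2 losing its call without H/R+BA replicate 1 (adjusted p = 0.0532) or 2 (0.0570). Of 5 other proline and ornithine genes tested, 1 was called higher and 1 lower (median -0.07). PYCRL, a cytosolic enzyme of proline synthesis, fell to 3.01 ± 0.201 FPKM in the H/R+BA group, against 3.99 ± 0.160 FPKM in the H/R group (-0.32, adjusted p = 0.0131).

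Of 14 genes for regulators known to act on these enzymes 3 rose (median 0.07), while 0 were called lower and 0 were lower at an unadjusted p under 0.05. Among all genes tested, 13.7% were called higher and 11.1% lower. TRIB3, a pseudokinase induced by ATF4, had 18.5, 18.5, 20.1 and 20.3 FPKM in the H/R+BA libraries, against 8.38, 11.2, 6.81 and 11.2 FPKM in the H/R libraries (log2 fold change 0.99, limma adjusted p = 0.00127). DDIT3, the stress factor CHOP, had 29.7, 26.4, 30.4 and 26.03 FPKM in the H/R+BA libraries, against 14.5, 18.2, 9.79 and 17.7 FPKM in the H/R libraries (0.89, adjusted p = 0.00449). Neither gene overlapped between the groups, and H/R replicate 3 was again the lowest library. CEBPB, a C/EBP partner of ATF4, averaged 12.8 ± 0.629 FPKM in the H/R+BA group and 8.23 ± 1.85 FPKM in the H/R group (0.60, adjusted p = 0.00819). ATF4, named after its values were seen, averaged 240.0 ± 5.96 FPKM in the H/R+BA group and 184 ± 39.5 FPKM in the H/R group and did not pass (0.41, adjusted p = 0.0543). Its H/R+BA libraries, at 233 to 245 FPKM, all lay above its H/R libraries, at 133 to 217 FPKM, a pattern found in 15.3% of all genes tested. The mRNA level of ATF4 does not measure its translation.

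**Figure D5:**
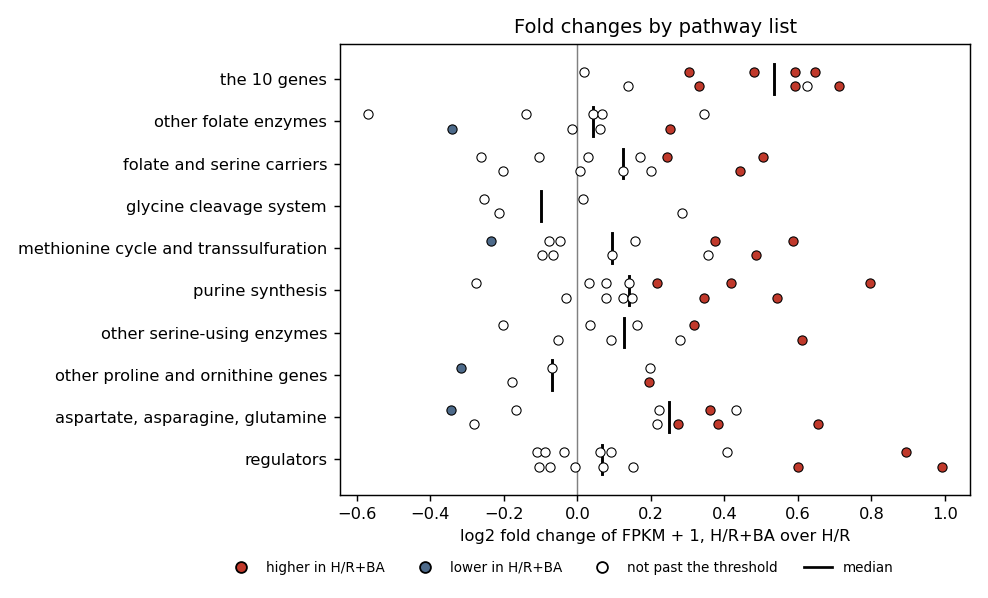
Log2 fold change of FPKM + 1, H/R+BA over H/R, for each tested gene (circles) of the 10 genes and of 9 lists of related genes (lines of the vertical axis), with the median of each as a black bar, red for genes called higher and blue for genes called lower. The median of the 10 genes, 0.54, lies to the right of the medians of all 9 lists, which run from -0.10 to 0.25.

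By the likeness of their pattern over the 8 libraries, measured as Pearson r of log2(FPKM + 1) among 12668 tested protein-coding genes outside the 10, the nearest to PHGDH were SESN2 (r = 0.995), a stress-induced inhibitor of mTORC1, HNRNPH3 (r = 0.991), an RNA-binding protein, and CYB561 (r = 0.990). Those nearest to MTHFD2 were LARS (r = 0.988), the leucyl-tRNA synthetase, CBSL (r = 0.987) and SEPHS2 (r = 0.987), and those nearest to ASNS were CDH1 (r = 0.984), the epithelial cadherin, PRSS22 (r = 0.984) and PMAIP1 (r = 0.981). CDH1 had 17.2 to 34.2 FPKM in the H/R+BA libraries and 10.1 to 58.6 FPKM in the H/R libraries (log2 fold change 0.03, limma adjusted p = 0.969), a range that, like that of ASNS, was wider in the H/R group on both sides. The genes nearest to PHGDH and MTHFD2 were all called higher. As r was taken over both groups together, this follows from the choice and is no separate result. These values of r were the highest of many and carry no test.

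Reads of the 10 genes could be shared with pseudogenes, of which the table lists 18. The highest of them reached 0.210 FPKM and 11 were listed at 0 in every library.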

How the data were processed

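Poly(A) RNA of 8 libraries (TruSeq Stranded mRNA) was sequenced on an Illumina NovaSeq. Per the methods and the submitters' processing notes, the authors used Trimmomatic 0.39 for trimming, HISAT2 2.1.0 for alignment to GRCh38.p5, featureCounts 2.0.6 for counting and Cuffdiff 2.2.1 for differential expression. Which gene annotation they used is not stated in the sources read here. Per library, the deposited gene table holds FPKM and, as signal values, counts, both normalized by the authors. Of the normalized counts, 72.1% to 76.1% per library were whole multiples of 1 step (within 0.02), so they were not used as read counts. The deposited sequencing summary gives the read count and the percent mapped per library. The authors' fold change, a signed score, and p-value columns hold their own comparison and were not used, nor were 4 columns of group means and 9 libraries of the summary that belong to other samples.

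FPKM was tested as log2(FPKM + 1) with limma 3.58.1 in R 4.3.3 (trended prior variance, two-sided, threshold 0.05). Of 60658 genes, the 14334 that reached 1 FPKM in at least 4 libraries were kept, and p-values were adjusted over them (Benjamini-Hochberg). The test replaces Cuffdiff, which needs reads. Ratios and relations used exact permutation tests (scipy 1.17.1, Python 3.11.15). The fit was tested on simulated data. Coordinates came from GENCODE 44 by gene ID. Named were the 10 genes, up to 3 called genes with the smallest p from each of 9 pathway lists, or the 2 most abundant where none was called, and the 3 most correlated genes for PHGDH, MTHFD2 and ASNS. CTH, IMPDH1, IMPDH2, GART, ATIC, GPT2, GOT2, ATF4, overlapping genes and markers were named after their values were seen. Some genes that this rule names and 1 within-library ratio are not reported here. The 10 genes and all lists were chosen with earlier results of these data known. Alternatives were the pseudocount (0.1), the filter, rescaling, the normalized counts, array weights, the replicate number as a block, each library left out and, added after the data were seen, a hepatic marker covariate. FPKM carries no depth from which a counting error could be taken, so precision comes from the spread of 4 libraries per group.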

Additional observations from a re-analysis of the deposited data

How the results depend on the processing

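PHGDH, PSPH, MTHFD1, MTHFD2, ALDH1L2 and PYCR1 kept their call and SHMT1 stayed without one in all 17 alternatives. SHMT2 lost its call in 10 of them. The number of the 10 genes called higher was 6 with no filter, with equal totals and without any single library but H/R replicate 2, and 8 with the normalized counts, array weights, the hepatic marker covariate and without H/R replicate 2, with 0 called lower throughout. Over all genes, 1958 were called higher and 1588 lower, against 1793 and 1779 with median ratios and 1983 and 1349 with equal totals. The numbers were 2350 and 2595 with the normalized counts, 2011 and 1634 with array weights, and 2867 and 2328 with the hepatic marker covariate. Leaving out 1 library gave 1269 (without H/R+BA replicate 2) to 1945 higher and 1087 to 1555 lower. The sign of ASNS turned with median ratios (-0.0024), with the covariate (-0.0068) and when a library was left out (-0.13 to 0.14). The sign of GCSH turned with median ratios (-0.0030), with the normalized counts (-0.072) and when a library was left out (-0.054 to 0.077). Neither was called in any fit, and the cause was not tested.

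The replicate numbers did not pair the libraries. Deviations from the group means of libraries with the same number correlated at 0.243, -0.235, -0.249 and -0.0145. No H/R+BA library correlated best with the H/R library of its own number. With the number as a replicate block, 1460 genes were called higher and 1071 lower, 6 of the 10 genes among the higher ones, SHMT2 having an adjusted p of 0.0857, SFXN1 0.0519, MAT2A 0.0547 and CTH 0.0810. Genes near 1 FPKM, such as ALDH1L2, are limited most by the pseudocount, since its log2 fold change was 0.96 with a pseudocount of 0.1.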
